A study of Mus musculus with 12 samples.

Results

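The response of the aged cortex to morphine was examined by comparing old mice given the drug with old mice given saline. The members were chosen by title alone: 3 libraries of old morphine and 3 libraries of old saline, 6 of the 12 libraries of the series. RNA was measured by sequencing of ribosome-depleted total RNA from prefrontal cortex; all mice were females of the inbred strain C57BL/6JN. Old mice were 20 months of age and received morphine at 3 mg/kg by intraperitoneal injection, or saline by that route in the control group. The other 6 libraries were from young mice of 4 months with the same strain, sex, dose and control, and they enter here through the shared estimate of spread and as the comparison at another age. How long after the injection the tissue was taken is not given in the sources used here. Whether each replicate is a separate animal is not stated in the labels, and the p-values therefore measure only how these samples spread, which may be technical.

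Morphine acts mainly at the mu opioid receptor, which couples to inhibitory G proteins, lowers cyclic AMP and opens potassium channels in the neurons that carry it. Active neurons switch on immediate early genes, first transcription factors such as Fos and Egr2, then effectors such as Arc that act at synapses. Kinase cascades, among them the MAP kinase pathway, carry the signal to the nucleus, and the phosphatases and Sprouty proteins that they induce shut the pathway down again.

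The 6 libraries held 20236452 to 37617472 estimated reads, so that 3 reads correspond to 0.08 to 0.148 CPM (reads scaled to the size of the library), counting error only. Levels are given as CPM per library in the order of replicates 1, 2 and 3, and each log2 fold change ± SE with its Benjamini-Hochberg adjusted p is from edgeR's quasi-likelihood test over 16796 genes, at a threshold of 0.05. Of the marker lists, 16 of 16 markers of deep and upper layer cortical neurons and 14 of 14 neuron markers were measured. So were 16 of 16 olfactory bulb and 12 of 12 meningeal fibroblast markers, so being measured does not tell cortex from neighbouring tissue. Slc17a7, the vesicular glutamate transporter of cortical excitatory neurons, stood at 939 to 1051 CPM in the old libraries. Olfactory bulb markers, which mark tissue next to the frontal cortex, summed to 261, 305 and 192 CPM after saline and 387, 200.2 and 197 CPM after morphine, high in old morphine replicate 1 and in old saline replicates 1 and 2. In bulk tissue, fewer cells of a type and less RNA per cell cannot be told apart.

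Egr2, Arc and Fos, which neurons induce with activity, rose most among the genes at 1 CPM or more in old mice after morphine, and 6 of 18 regulators that feed back on the MAP kinase pathway rose. The endoplasmic reticulum chaperones Hspa5 and Hsp90b1 and the clock genes Per1 and Per2 rose by smaller steps than Egr2, Arc and Fos. The glucocorticoid-responsive genes Hif3a and Fkbp5 fell. In all, 98 of 16796 genes passed (0.583%), 79 higher (0.47%) and 19 lower (0.113%). The changes were mostly small, under 0.5 on the log2 scale for 66 of the 98 and 1 or more for 9. All 98 were protein coding, as were 21899 of the 35272 genes matched before filtering. None of the 98 overlapped between the groups, where 20.4% of all genes did not overlap. Selection by small p in these same libraries made that likely beforehand, so it adds no support. Unadjusted p was under 0.05 for 3133 genes (18.7%), higher in 10.1% and lower in 8.56% of all genes.

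The count depended on single libraries. Dropping old saline replicate 1 gave 711, dropping old morphine replicate 1 gave 276 and dropping young saline replicate 1 gave 196. Leaving out old saline replicate 2 or 3 gave 10, and leaving out old morphine replicate 2 or 3 gave 14. Without young morphine replicate 1, 2 or 3 it was 63, 61 and 63. Genes past the threshold in all 12 fits that each left out 1 library were Egr2, Trib2, Pfkfb3, Bhlhe40, Dusp4, Spry4 and Sh2d3c. Each of the 98 kept its direction in every alternative fit that gave it a value, which was all 27 except for Wnt11, with a value in 26. These fits reuse the libraries in which the 98 were selected. The share of higher calls was 80.6%, against 67.8% with upper-quartile scaling, 96.7% with length-scaled counts and 62.0% by DESeq2.

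**Figure D1:**
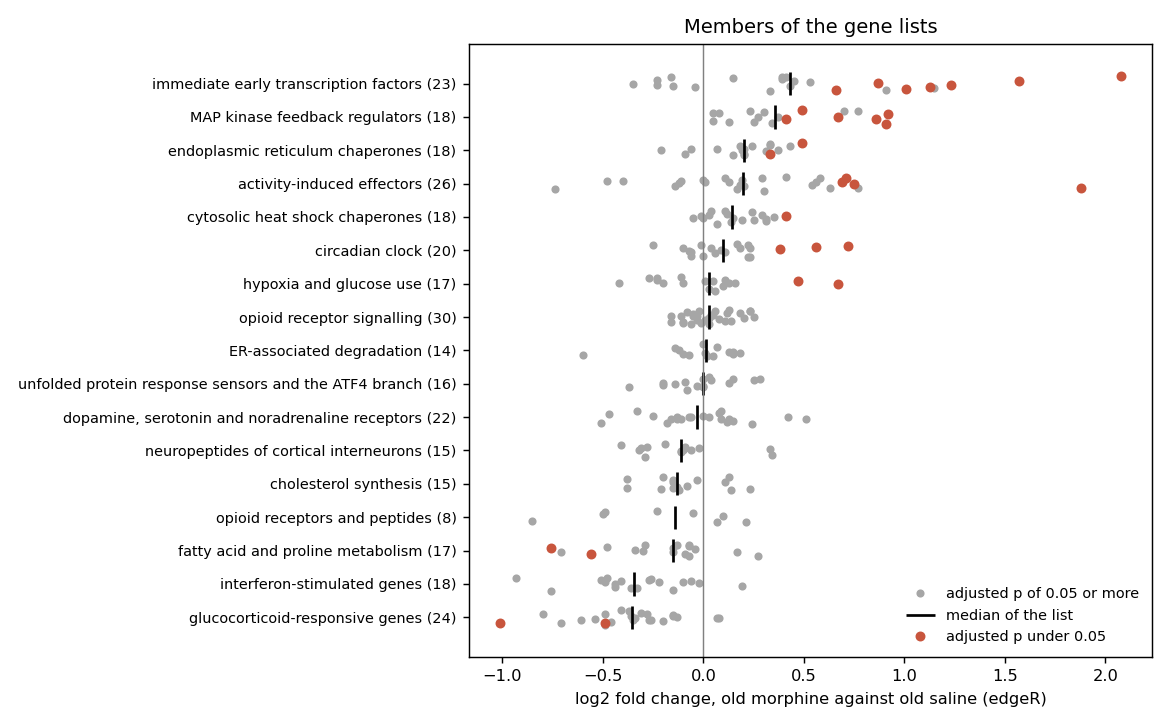
Log2 fold changes of old morphine against old saline for the measured members of 17 pathway lists, 1 point per gene, with the number measured in brackets and the list median as a bar. Points past the adjusted p of 0.05 lie to the right in the lists of immediate early transcription factors and MAP kinase feedback regulators, and to the left in the glucocorticoid-responsive genes, whose median was -0.35.

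Of 23 measured immediate early transcription factors, 7 rose and 0 fell, with a median log2 fold change of 0.43 beside a median of -0.00 over all genes. Egr2 (chr10:67535475-67542188, plus strand, GRCm38), a zinc finger factor induced by synaptic activity, stood at 2.07, 2.02 and 2.15 CPM after saline and at 7.97, 8.13 and 10.4 CPM after morphine. The groups lay far apart, and the saline libraries were nearly alike. Egr2 rose 4.24-fold, a log2 fold change of 2.08 ± 0.19 (adjusted p = 0.000372). Its RefSeq promoter windows (GRCm38.p6, 250 bases before to 50 after a start) include those below, which hold a CArG box upstream of the start. The CArG box is the element bound by serum response factor, and any window without a match is not shown. The matches are shown because 1.61% of the tested genes with a window, and 1.63% of all 32851 windows, hold this element, which was searched on both strands and is in capitals.
Egr2, chr10:67537484-67537513, plus strand: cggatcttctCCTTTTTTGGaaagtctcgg
Egr2, chr10:67537787-67537816, plus strand: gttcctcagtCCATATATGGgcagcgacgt

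Fos (chr12:85473890-85477273), a subunit of the AP-1 factor, stood at 6.57, 4.44 and 4.01 CPM after saline and at 13.2, 14.2 and 17.2 CPM after morphine. It rose 2.96-fold, with no overlap of the groups (1.57 ± 0.25, adjusted p = 0.0222). Junb (chr8:84974484-84978718), another AP-1 subunit, rose from 19.1, 18.9 and 22.5 CPM to 38.6, 36.5 and 36.1 CPM (0.87 ± 0.15, adjusted p = 0.0255). The nuclear receptors Nr4a3 and Nr4a1 rose by 1.23 ± 0.20 and 1.13 ± 0.20, Klf10, a zinc finger repressor, by 1.01 ± 0.17, and Ier5, an immediate early response protein, by 0.66 ± 0.10. Egr1 had a log2 fold change of 1.15 ± 0.21 and Nr4a2 of 0.91 ± 0.20, without overlap of the groups, and missed the threshold narrowly (adjusted p = 0.0535 and 0.0562). Fosl2, Egr4 and Egr3 also had groups apart, with values of 0.53, 0.45 and 0.33 (adjusted p = 0.0763, 0.148 and 0.135). Of the 23, 6 had values below 0. Npas4, a factor specific to neuronal activity, stood at 12.6, 7.11 and 12.9 CPM after saline and at 14.6, 8.58 and 12.9 CPM after morphine, overlapping throughout, and Jun had a value of -0.23 ± 0.10 (adjusted p = 0.229). Leaving out old saline replicate 1, 2 or 3 gave 10, 2 and 1 risen members, and leaving out old morphine replicate 2 or 3 gave 1. With the mean level of meningeal fibroblast markers in the model, 1 of the 23 passed.

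**Figure D2:**
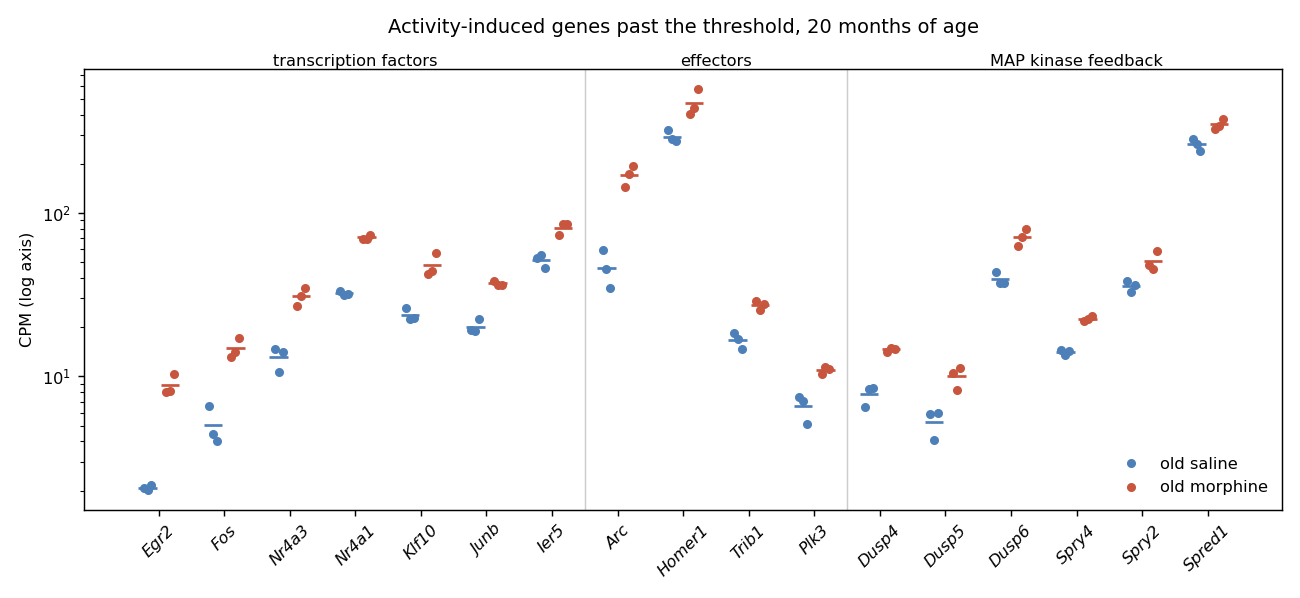
CPM on a log axis in the 3 old saline and 3 old morphine libraries for 17 activity-induced genes past the threshold, 1 point per library, with the group mean as a line. The groups do not overlap for any of the 17, which were selected by small p in these same libraries. The gap is widest for Egr2, at 2.02 to 2.15 CPM after saline and 7.97 to 10.4 CPM after morphine.

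Of 26 activity-induced effectors, 4 rose and 0 fell, with a median of 0.19. Arc (chr15:74669083-74672570), which regulates the glutamate receptors of the synapse, stood at 59.2, 45.3 and 34.6 CPM after saline and at 144, 174 and 195 CPM after morphine. The lowest morphine library was above the highest saline library, and Arc rose 3.69-fold (1.88 ± 0.23, adjusted p = 0.0174). Per length, mean Arc TPM was 30.6 ± 8.39 after saline and 108 ± 10.6 after morphine (SD, n = 3), and Egr2 TPM was 1.69 ± 0.438 and 5.87 ± 0.454. Homer1 (chr13:93299635-93405129), a scaffold of the postsynaptic density, stood at 320.1, 282 and 275 CPM and at 405, 440.2 and 572 CPM, and rose by 0.69 ± 0.12 (adjusted p = 0.0245). Trib1, a pseudokinase, and Plk3, a Polo-like kinase, rose by 0.71 ± 0.11 and 0.75 ± 0.15. Bdnf, the neurotrophin of activity-dependent plasticity, had a value of 0.58 ± 0.17 and Pcsk1, a convertase of neuropeptide precursors, of 0.77 ± 0.17 (adjusted p = 0.121 and 0.0719). Ptgs2, Rgs2 and Nptx2, all inducible in cortical neurons, lay at 0.01, -0.00 and 0.11. Other members lay lower: 7 of the 26 were below 0, and Zfp36, which destabilizes messenger RNA, stood at 4.12, 4.37 and 5.08 CPM after saline and at 2.80, 2.86 and 2.49 CPM after morphine, without overlap (-0.74 ± 0.21, adjusted p = 0.0996). Gadd45g, a stress sensor of the growth arrest family, had a value of -0.40 ± 0.19 with groups apart, and Ccn1, a matricellular protein, of -0.48 ± 0.21 with overlap (adjusted p = 0.275 and 0.243). Of the effectors, 7 rose when old saline replicate 1 was dropped and 0 when replicate 2 or 3 of that group was. Dropping old morphine replicate 1 gave 6 and dropping replicate 2 or 3 gave 1. With the fibroblast marker score in the model 0 passed, and the median was 0.17.

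Of 18 MAP kinase feedback regulators, 6 rose and 0 fell, with a median of 0.35. All 18 had a log2 fold change above 0, as did 49.4% of all genes, in a list chosen with earlier results known. Dusp4 (chr8:34807297-34819894), a nuclear phosphatase of ERK, stood at 6.49, 8.37 and 8.53 CPM after saline and at 14.2, 15.0 and 14.8 CPM after morphine, groups well apart (0.91 ± 0.13, adjusted p = 0.00802). Dusp6, the cytoplasmic ERK phosphatase, rose from 43.3, 37.1 and 37.4 CPM to 62.8, 71.4 and 79.9 CPM (0.86 ± 0.12, adjusted p = 0.00908). Spry4, a Sprouty inhibitor of receptor tyrosine kinase signalling, rose from 14.5, 13.5 and 14.4 CPM to 21.7, 22.6 and 23.4 CPM (0.67 ± 0.09, adjusted p = 0.00507). Spry2 and the related Spred1 rose by 0.49 ± 0.10 and 0.41 ± 0.07. Spred2, Spred3 and Dusp1 had values of 0.37, 0.30 and 0.70 with adjusted p of 0.076, 0.0718 and 0.0734. Dusp5 (chr19:53529109-53542431), another nuclear ERK phosphatase, rose by 0.92 ± 0.18, and its promoter window holds a pair of adjacent CArG boxes, in capitals.
Dusp5, chr19:53529058-53529087, plus strand: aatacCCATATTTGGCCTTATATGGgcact

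Trib2, a pseudokinase outside these lists, stood at 43.9, 39.2 and 40.6 CPM after saline and at 62.1, 63.3 and 73.3 CPM after morphine (0.68 ± 0.08, adjusted p = 0.00234). With the fibroblast marker score in the model, the feedback list had 1 member past the threshold and a median of 0.21. Of that list 10 rose when old saline replicate 1 was dropped, and 2 rose when replicate 2 or 3 of either old group was.

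Chaperones of the endoplasmic reticulum fold secreted and membrane proteins, and many are induced through the ER stress response element (ERSE), which ATF6 and XBP1 act on. Of 18 measured, 2 rose and 0 fell, with a median of 0.20. Higher values with an unadjusted p under 0.05 were found for 14 of the 18, against 10.1% of all genes, and 12 did not overlap with morphine higher, against 10.7%. The list was chosen with earlier results of these data known, so this excess is not independent support. Hspa5 (chr2:34771970-34777547), the master chaperone BiP, stood at 206, 188 and 192 CPM after saline and at 241, 306 and 275 CPM after morphine. It rose with no overlap of the groups (0.49 ± 0.08, adjusted p = 0.0174). Hsp90b1 (chr10:86690209-86705509), the HSP90 of the endoplasmic reticulum, rose from 295, 285 and 291 CPM to 334, 387 and 372 CPM (0.33 ± 0.06, adjusted p = 0.0222). Manf, a secreted stress-induced factor, had a value of 0.33 ± 0.07 and Calr, the lectin chaperone calreticulin, of 0.20 ± 0.07 (adjusted p = 0.0535 and 0.146). Dropping old saline replicate 1 gave 4 risen chaperones, dropping old morphine replicate 1 gave 5, and dropping replicate 2 or 3 of either old group gave 0. With the fibroblast or myelin marker score 0 passed, and with the fibroblast score 7 had an unadjusted p under 0.05 in place of 14, and the median was 0.17.

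The ERSE, spelled here as CCAAT and CCACG with 9 bases of any kind between them and searched on both strands, was in the window of 7 of the 14 chaperones with a RefSeq window, against 0.165% of the tested genes and 0.119% of all windows. The matches are shown because they share the 2 outer blocks and differ in the bases between, with the element in capitals and its reverse complement in capitals where it lies on the other strand. Hsp90b1 has 2 matches. Among the called genes with a window, the element was in 2 of the 59 risen (3.39%), Hspa5 and Hsp90b1. It was also in 1 of the 18 fallen (5.56%), Acacb, whose match is not shown.
Hspa5, chr2:34772020-34772048, plus strand: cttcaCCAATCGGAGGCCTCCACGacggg
Hsp90b1, chr10:86705633-86705661, minus strand: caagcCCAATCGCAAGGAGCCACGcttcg
Hsp90b1, chr10:86705528-86705556, minus strand: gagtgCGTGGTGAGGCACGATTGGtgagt
Calr, chr8:84847070-84847098, minus strand: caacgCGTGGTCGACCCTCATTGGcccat
Canx, chr11:50325795-50325823, minus strand: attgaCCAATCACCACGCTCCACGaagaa
Pdia6, chr12:17266486-17266514, plus strand: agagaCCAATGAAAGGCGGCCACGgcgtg
Dnajc3, chr14:118937822-118937850, plus strand: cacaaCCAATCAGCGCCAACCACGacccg
Creld2, chr15:88819515-88819543, plus strand: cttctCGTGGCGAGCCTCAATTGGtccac

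The 7 genes with the element had log2 fold changes from 0.15 to 0.49, median 0.24, and the 7 with a window and no match from -0.09 to 0.43, median 0.20. The ranges overlapped, and these values are a description of the 14 genes. Other arms of the unfolded protein response had no called member. Of 14 genes of ER-associated degradation, 0 passed, with a median of 0.01, and of 16 stress sensors and genes of the ATF4 branch 0 passed, with a median of 0.00. Xbp1 had a value of 0.25 ± 0.05 (adjusted p = 0.0535) and Ddit3, the factor CHOP, of 0.28 ± 0.11 (adjusted p = 0.19). Of 18 cytosolic heat shock chaperones, 1 rose and 0 fell. It was the HSP90 co-chaperone Chordc1, from 66.6, 59.2 and 59.3 CPM to 75.4, 79.6 and 90.9 CPM (0.41 ± 0.07, adjusted p = 0.0239). The list had 5 risen members when old saline replicate 1 or old morphine replicate 1 was dropped and 0 when any other old library was. It had 0 with the fibroblast or myelin marker score, with length-scaled counts, or with the GC and length trend removed. The stress-inducible Hspa1a and Hspa1b lay at 0.04 and -0.00.

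**Figure D3:**
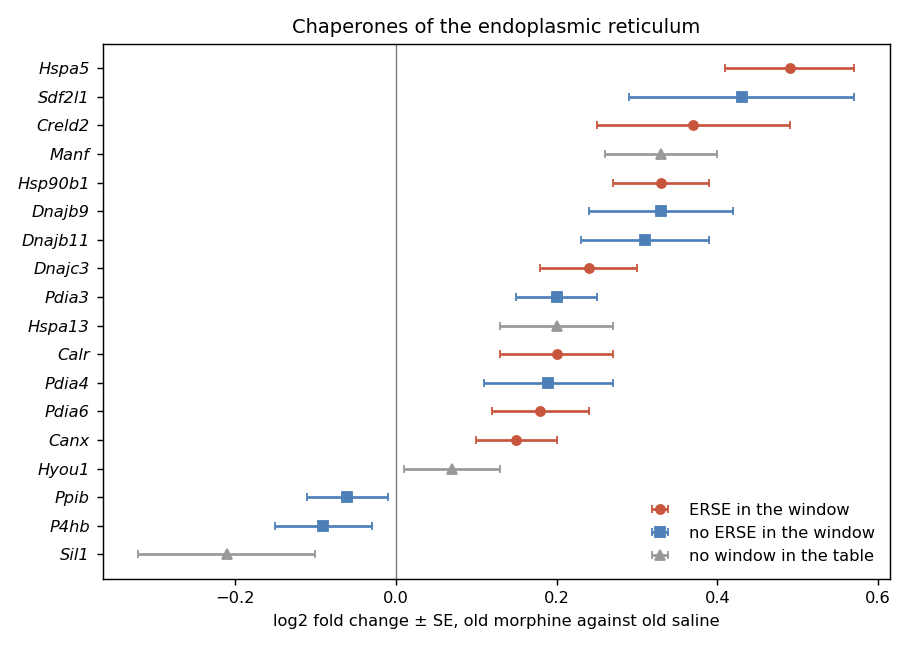
Log2 fold change ± SE of 18 endoplasmic reticulum chaperones, old morphine against old saline, with the marker showing whether the ERSE was found in the RefSeq promoter window. Hspa5 is highest at 0.49, and genes with and without the element lie in overlapping ranges.

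Of 20 circadian clock genes, 3 rose and 0 fell, with a median of 0.10. Per2 (chr1:91415982-91459324), a repressor of the CLOCK complex, stood at 58.6, 42.5 and 43.9 CPM after saline and at 74.1, 85.4 and 79.3 CPM after morphine, with no overlap (0.72 ± 0.10, adjusted p = 0.00756). Bhlhe40 (chr6:108660629-108666925), which represses the same complex, rose from 153, 134 and 143 CPM to 204, 214 and 218 CPM (0.56 ± 0.08, adjusted p = 0.00588). Per1 rose from 82.2, 80.7 and 83.5 CPM to 100.4, 116 and 104 CPM (0.38 ± 0.08, adjusted p = 0.049). Dbp and Nr1d1, clock outputs with strong daily rhythms, lay at 0.04 ± 0.11 and -0.01 ± 0.08. At what hour the tissue was taken is not given in the sources used here. The E-box CACGTG, to which the CLOCK complex binds, was in the windows of 5 of 17 clock genes, against 10.9% of tested genes. Of the 3 risen clock genes only Per1 was among the 5, and Per2 and Bhlhe40, with larger rises, were not. The match of Per1 is shown in capitals.
Per1, chr11:69098771-69098800, plus strand: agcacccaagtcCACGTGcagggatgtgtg
Of the clock genes, 5 rose when old saline replicate 1 was dropped, and 1 rose when old saline replicate 3 or old morphine replicate 2 was. With the fibroblast marker score 0 passed.

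Of 24 glucocorticoid-responsive genes, 2 fell and 0 rose, and 22 were below 0, with a median of -0.35. Of the 24, 12 did not overlap with morphine lower, against 9.75% of all genes, in a list chosen with earlier results of these data known. Hif3a (chr7:17031507-17062427), a hypoxia-inducible factor subunit, stood at 18.0, 23.7 and 18.4 CPM after saline and at 12.2, 9.32 and 8.23 CPM after morphine. The groups did not overlap, and the log2 fold change was -1.01 ± 0.16 (adjusted p = 0.0174). Fkbp5 (chr17:28399094-28517527), a co-chaperone that restrains the glucocorticoid receptor, fell from 56.1, 56.8 and 71.4 CPM to 44.0, 45.1 and 42.2 CPM (-0.49 ± 0.10, adjusted p = 0.0382). Sgk1, a kinase induced by glucocorticoids, and Tsc22d3, the factor GILZ, had values of -0.31 ± 0.08 and -0.20 ± 0.07 (adjusted p = 0.075 and 0.176). When replicate 2 or 3 of either old group was dropped 0 of the 24 passed, and 5 fell when old saline replicate 1 was. With the fibroblast marker score 0 passed, 5 lower values had an unadjusted p under 0.05 in place of 15, and the median was -0.24; with length-scaled counts 0 passed.

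Of 17 measured genes of hypoxia and glucose use, 2 rose and 0 fell, with a median of 0.03. Pfkfb3 (chr2:11471433-11554077), which makes the activator of glycolysis, stood at 33.3, 33.2 and 31.5 CPM after saline and at 47.7, 51.3 and 56.8 CPM after morphine (0.67 ± 0.08, adjusted p = 0.00234). P4ha1, a subunit of collagen prolyl hydroxylase, rose from 43.7, 38.5 and 41.1 CPM to 53.0, 57.5 and 60.2 CPM (0.47 ± 0.06, adjusted p = 0.00733). Both stood clear of the saline range. Of 17 genes of fatty acid and proline metabolism, 2 fell and 0 rose, with a median of -0.15: Acacb, the acetyl-CoA carboxylase of mitochondria (-0.76 ± 0.16, adjusted p = 0.0448), and Prodh, proline dehydrogenase (-0.56 ± 0.10, adjusted p = 0.0252). Of the 17, 4 fell when old saline replicate 1 was dropped, and 0 when replicate 2 or 3 of either old group was. With the fibroblast or myelin marker score or with length-scaled counts 0 fell, and with the fibroblast score 1 of the 17 hypoxia genes rose.

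The receptors that morphine acts on did not pass. Of 8 opioid receptors and peptides, 0 passed, with a median of -0.14. Oprm1, the mu receptor, stood at 4.39, 3.07 and 2.82 CPM after saline and at 4.08, 2.51 and 4.15 CPM after morphine, with overlapping groups (0.07 ± 0.24, adjusted p = 0.894). Per length, mean TPM after saline was 3.89 ± 0.728 for Oprm1, 17.9 ± 1.36 for Oprd1, the delta receptor, and 29.7 ± 1.51 for Oprl1, the nociceptin receptor (SD, n = 3). Oprd1 had a value of 0.21 ± 0.08 (adjusted p = 0.178), and Penk and Pdyn, precursors of enkephalins and dynorphins, of 0.10 ± 0.23 and -0.23 ± 0.12. Pnoc, the nociceptin precursor, stood at 2.76, 5.05 and 5.56 CPM after saline and at 2.93, 3.35 and 3.24 CPM after morphine, overlapping through old saline replicate 1 (-0.49 ± 0.23, adjusted p = 0.27). Oprk1, the kappa receptor, was under 1 CPM in 5 of the 6 libraries. Of 30 genes of opioid receptor signalling, 0 passed, with a median of 0.03 and a range from -0.16 to 0.25. Among 22 receptors of dopamine, serotonin and noradrenaline and 15 interneuron peptides and markers, 0 passed in either list, with medians of -0.03 and -0.11. Of 18 interferon-stimulated genes 0 passed, with 17 below 0 and a median of -0.34, and of 15 genes of cholesterol synthesis 0 passed, with a median of -0.13.

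Meningeal fibroblast markers, which mark the membranes around the brain, were lower after morphine in 12 of 12, with a median of -0.79 and 0 past the threshold. Their summed level was 1330.2, 1886 and 1967 CPM after saline and 1344, 969 and 551 CPM after morphine, so that old morphine replicate 1 lay within the saline range and replicate 3 lay lowest. Summed microglia markers were 366, 473 and 425 CPM after saline and 353, 354 and 352 CPM after morphine, with 12 of 13 lower and a median of -0.27. Mural cell markers had a median of -0.35, blood cell markers of -0.49 and myelin markers of 0.28. None of the 13 marker lists had a member past the threshold. With the fibroblast marker score in the model 4 genes passed, Egr2, Pfkfb3, Trib2 and Dusp6. All 98 kept their direction and an unadjusted p under 0.05, with a median size of 0.34 in place of 0.41. The 98 were selected by small p in these same libraries, which made that outcome likely beforehand. The part of tissue makeup in the results was not otherwise tested.

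**Figure D4:**
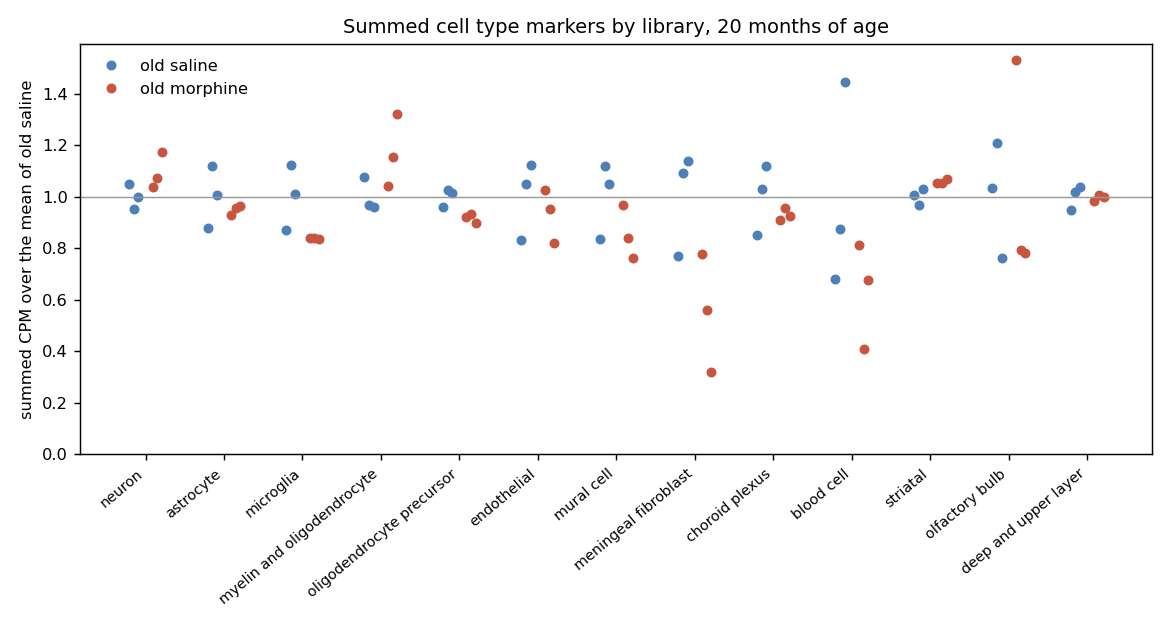
Summed CPM of 13 cell type marker lists in each old library, divided by the mean of the 3 old saline libraries, 1 point per library. Meningeal fibroblast markers are lowest in old morphine replicate 3, at 551 CPM, and microglia markers lie below the 3 saline libraries in all 3 morphine libraries.

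GC content moved with the direction of change as well: the median GC share of the transcripts was 47.3% in the 79 risen genes, 56.1% in the 19 fallen and 50.1% in all genes. When each library's dependence on GC share and transcript length was fitted as a spline and taken out, 107 genes passed, and 56 of the 98 were among them. All 98 kept their direction and an unadjusted p under 0.05, with a median size of 0.36, in the same libraries in which they were selected by small p.

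The young libraries are not among the old groups, but they entered the shared estimate of spread by which the 98 were called. They gave a reading of the same genes at 4 months. Of the 79 genes risen in old mice, 60 had a log2 fold change above 0 in young mice, as did 49.3% of all genes. Of the 19 fallen 12 were below 0, where all genes split about evenly. Whether 12 of 19 differs from that split was not tested. Median changes were 0.41 in old and 0.09 in young mice for the risen genes, and -0.49 and -0.11 for the fallen. Since the 98 were selected in old mice, their old values are larger by that selection. Arc stood at 80.6, 48.9 and 57.0 CPM in young saline and at 124, 118 and 107 CPM in young morphine libraries (0.90 ± 0.23, adjusted p = 0.28). Dusp4 and Dusp5 had young values of 0.69 and 0.75, near the old values of 0.91 and 0.92. Junb and Spred1 had young values of -0.02 and 0.00, and Serinc2, a membrane protein of the serine incorporator family that rose by 1.34 ± 0.24 in old mice, had a young value of 1.54 ± 0.24.

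The difference of the morphine effects between the ages was tested as an interaction, and by edgeR 0 of 16796 genes passed; the smallest adjusted p was 0.255, and 1808 genes (10.8%) had an unadjusted p under 0.05. DESeq2 called 115 genes, limma-voom 0, and edgeR with a myelin marker score in the model 173. Egr2 had an interaction of 1.39 ± 0.26 and Junb of 0.89 ± 0.21, with adjusted p of 0.255 and 0.26.

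**Figure D5:**
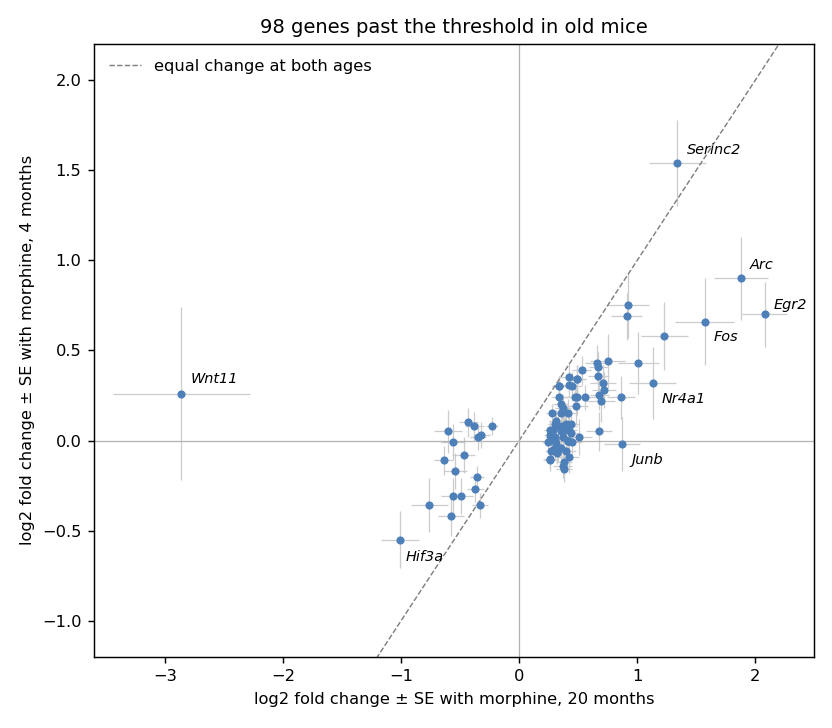
Log2 fold change ± SE with morphine at 20 months (x axis) and at 4 months (y axis) for the 98 genes past the threshold in old mice, with the line of equal change dashed. The risen genes have medians of 0.41 in old and 0.09 in young mice, and Serinc2 lies above the line. Wnt11, below 1 CPM and labelled after its values were seen, stands alone at -2.86.

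Among the 19 genes that fell, the largest changes at 1 CPM or more were Hif3a, Acacb, Sh2d3c, Cmtm3, Dact2, Prodh, Pgap2 and Tpst2. Sh2d3c (chr2:32721055-32755512), an adaptor of integrin and receptor signalling, stood at 15.0, 14.2 and 14.8 CPM after saline and at 10.1, 8.63 and 9.44 CPM after morphine (-0.64 ± 0.08, adjusted p = 0.00507). Dact2, an antagonist of Dishevelled in Wnt signalling, fell from 64.4, 84.2 and 84.3 CPM to 51.4, 59.5 and 45.1 CPM (-0.58 ± 0.11). Cmtm3, a membrane protein, Pgap2, which remodels lipid anchors, and Tpst2, a tyrosine sulfotransferase, fell by 0.60, 0.56 and 0.54 on the log2 scale. Outside the pathway lists 69 genes passed, 54 higher and 15 lower, and 49 of the 54 were under 0.5, with a median of 0.36.

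Other elements were searched in the promoter windows of the 59 risen and 18 fallen genes that had one. The E-box CACGTG was found in 8 of the 59 risen genes (13.6%), among them Egr2, Per1, Pfkfb3 and the insulin receptor substrate Irs2, against 10.9% of tested genes. The CArG box was found in 3 (5.08%), Egr2, Dusp5 and the topoisomerase Top1, and in 2 of the 18 fallen genes (11.1%), against 1.61% of tested genes. Of the members with a window, it was in 1 of 18 immediate early transcription factors and 1 of 15 MAP kinase feedback regulators. The cyclic AMP response element TGACGTCA was found in 2 of the 59 (3.39%), against 3.24% of tested genes, in 2 of the 18 fallen genes (11.1%), and in 5 of 19 activity-induced effectors with a window. The AP-1 element TGANTCA, to which Fos and Junb bind, was in 1 of the 59 risen genes (1.69%), Hspa5, against 6.55% of tested genes. The EGR element GCGTGGGCG and the glucocorticoid response element were in 0 of the risen or fallen genes, against 1.3% and 0.445% of tested genes. At such low shares a count of 0 says little. The glucocorticoid response element was in 4 of 19 glucocorticoid-responsive genes with a window (21.1%). These counts describe letters in the windows.

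Isoform use was tested on the share of each transcript in its gene's TPM, over 40029 transcripts of 11106 genes. By limma 5 transcripts passed (0.0125%), and 2765 had an unadjusted p under 0.05 (6.91%). The 5 were Cwc22-208, Cntnap2-203, Ap4b1-204, Spats2l-204 and Narfl-204. Of the 5, 4 were listed at 0 in all 3 libraries of 1 old group, and Narfl-204 in old morphine replicates 1 and 3. The sizes of these differences therefore depend on the 0.1 TPM added to each value. None of the 5 belonged to a gene past the threshold by gene level. Next by p were 1810032O08Rik-205 and Zscan18-203, also listed at 0 in some old libraries, and Mybbp1a-207, which did not pass (adjusted p = 0.0634, 0.127 and 0.127). Mybbp1a-207 had the smallest p among transcripts above 0 in every old library. Homer1-204, a transcript of 5 exons and 5713 bases, made up 23.2, 19.2 and 18.2% of Homer1 TPM after saline and 25.3, 24.7 and 30.6% after morphine. Its groups did not overlap, and the log2 ratio to the other Homer1 transcripts differed by 0.54 ± 0.20 (adjusted p = 0.684). Homer1-203, with 10 exons, had a difference of -0.45 ± 0.19 (adjusted p = 0.706). Xbp1-201 made up 77.8, 75.0 and 81.4% of Xbp1 after saline and 79.4, 80.0 and 82.0% after morphine, with overlapping groups. Fosb-201, the main Fosb transcript, made up 75.6, 55.9 and 64.3% of Fosb after saline and 70.8, 73.3 and 68.7% after morphine, again with overlap. Crem-206, from the cyclic AMP responsive gene Crem, made up 11.2, 6.10 and 5.87% and 12.7, 12.9 and 13.6%, groups apart, with a difference of 0.88 ± 0.35 that did not pass (adjusted p = 0.691). Oprm1-215 made up 47.3 to 70.2% of Oprm1 after saline and 53.0 to 72.5% after morphine.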

How the data were processed

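RNA-seq of prefrontal cortex was quantified per transcript by the authors with Salmon 1.4.0; DESeq2 1.30.1 and the build GRCm38 are named as well, per the submitters' processing notes. Per the file headers, the deposited files hold estimated counts, which need not be whole, and TPM. Annotation release, strand and bias settings are not given in the sources used here, so reads of overlapping genes or near-identical copies may be divided in ways that cannot be seen. Of 113911 transcripts, 113694 matched 35272 genes of GENCODE M21, and the other 217 were left out. The estimated counts of a gene's transcripts were added up and rounded.

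Genes were tested with edgeR 4.0.16 (R 4.3.3, filterByExpr, TMM, robust quasi-likelihood) on all 12 libraries, with 1 coefficient per group and 8 residual degrees of freedom. The common coefficient of biological variation was 11.1%. Each SE is the log2 fold change over the root of the F statistic. Transcript shares were tested with limma 3.58.1 on log2((TPM + 0.1)/(TPM of the gene's other transcripts + 0.1)), for genes with at least 20 reads in every library and transcripts with mean shares of 5 to 95%. Such differences understate low transcripts.

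The genes named were drawn from the 10 largest rises and 8 largest falls past the threshold (own gene name, mean of 1 CPM or more, no overlap), up to 6 members past the threshold of each list or else the 2 with the smallest p, the members of the opioid, immediate early, effector and feedback lists at 1 CPM or more, and those past the threshold in every fit without 1 library. Transcripts were drawn from the 8 with the smallest p, all of which are named, and those of chosen genes. List members not named are given by counts. Calr, Manf, Sgk1, Tsc22d3, Dbp, Nr1d1, Hspa1a, Hspa1b, Slc17a7, Oprk1 and Wnt11 were named after their values were seen. The members and the 17 pathway and 13 marker lists were chosen with earlier results of these data known. Sequences are from RefSeq (GRCm38.p6), in which 77 of the 98 genes had a promoter window.

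Replicates differed beyond sampling noise (chi-square per degree of freedom 5.17 to 24.73). Alternatives were other scalings, filters and tests (DESeq2 1.42.0, limma-voom), length-scaled counts, other gene or library sets, the replicate block, GC and length splines, marker scores and leaving out each library. Both tests were first tested on simulated data.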

Additional observations from a re-analysis of the deposited data

Results flagged for a closer look

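The isoform Cwc22-208 of Cwc22, a splicing factor of the exon junction complex, differed between the ages in its response to morphine, by the test of that difference. The transcript (533 bases, 6 exons) made up 20.6, 21.7 and 29.3% of Cwc22 TPM in old saline libraries and was listed at 0 in the 3 old morphine libraries. In young mice it made up 17.9, 23.6 and 10.7% after saline and 31.4, 15.9 and 18.1% after morphine. The difference of the effects was -6.25 ± 0.57 on the log2 ratio scale (limma adjusted p = 0.0203), a size that depends on the 0.1 TPM added to each value. The old saline values rest on 35.1, 23.9 and 52.2 estimated reads, and a listed 0 can be an estimate that failed; this was not tested. Groups of 3 libraries were not tested for outlying samples.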

How the results depend on the processing

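Against 98 genes past the threshold in old mice, 30 passed with length-scaled counts, 160 with protein-coding genes alone, 20 with the 6 old libraries alone, 27 and 4 with a myelin or meningeal fibroblast marker score, and 776 by DESeq2. Other scalings and filters, the GC and length trend, the olfactory bulb score and limma-voom gave 66 to 137. Leaving out 1 library gave 10 to 711. Same-numbered old libraries deviated with correlations of -0.178, -0.003 and -0.161 over 13407 genes, and none correlated best with its own number. Deviations from means of 3 libraries are tied to one another, so these values cannot exclude pairing by number. Young libraries were not compared in this way. With the replicate block 36 genes passed, and 40 with the block and the GC and length trend removed. The difference between the ages had 115 genes by DESeq2, 173 with the myelin score, 0 to 1 without 1 library, and 0 with the replicate block. For isoform shares, against 5 transcripts, 2 passed with 1 TPM added, 2 with mean shares of 10 to 90%, 10 with shares of 2 to 98%, 36 with the old libraries alone, 2 with the replicate block, 36 by diffSpliceDGE and 4 to 48 without 1 library (48 without old morphine replicate 1, 37 without replicate 3).

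Of 146 named genes and transcripts, 26 changed sign under some alternative, none of them past the threshold as reported. With the fibroblast score Btg2 was 0.04, Errfi1 -0.01, Jund 0.00, Nptx2 -0.04, Nrn1 -0.02, Oprm1 -0.13, Plat 0.05, Ptgs2 -0.06 and Pvalb -0.03. With the myelin score Maff was 0.06, Nptx2 -0.05, Oprm1 -0.10 and Ptgs2 -0.06, and with the olfactory bulb score Ptgs2 was -0.02. With length-scaled counts Derl2 was -0.04, Jund 0.12, Ptgs2 -0.04 and Rgs2 0.09. With the GC and length trend removed, with or without the block, Jund was 0.07 and Ptgs2 -0.16. Ptgs2 was -0.03 with upper-quartile scaling, and Rgs2 was 0.00 with protein-coding genes or the block and 0.01 by limma-voom. By diffSpliceDGE the shares of Bdnf-210, Per1-201, Crem-218 and Sgk1-208 were 0.01, 0.05, -0.04 and 0.26. Without 1 library the log2 fold changes ranged for Btg2 -0.21 to 0.02, Errfi1 -0.01 to 0.11, Etv4 -0.11 to 0.16, Jund -0.12 to 0.03, Npas4 -0.06 to 0.34, Nptx2 -0.04 to 0.21, Oprl1 -0.10 to 0.04, Oprm1 -0.05 to 0.30, Penk -0.10 to 0.23, Ptgs2 -0.11 to 0.09 and Rgs2 -0.07 to 0.08, and the share differences for Bdnf-210 -0.30 to 0.23, Oprm1-215 -0.12 to 0.59, Oprm1-201 -1.07 to 1.37, Oprm1-211 -1.36 to 0.79, Fosb-206 -0.41 to 0.05, Crem-230 -0.14 to 0.12, Crem-218 -0.35 to 0.25, Sgk1-207 -0.41 to 0.32 and Sgk1-208 -2.10 to 0.74. The cause was not tested.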

Other observations

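Outside the pathway lists, the genes below were chosen after their values were seen. Dnajc21, a J-domain co-chaperone of ribosome assembly, rose by 0.68 ± 0.11 on the log2 scale (edgeR adjusted p = 0.0181), with a young value of 0.05. Dnajb5, another J-domain protein, rose by 0.53 ± 0.08, from 96.3 to 105 CPM after saline to 139 to 153 CPM after morphine. Ccnd2, a D-type cyclin, rose by 0.44 ± 0.06 (adjusted p = 0.00604), from a mean of 107 to 146 CPM. Irs2, an insulin receptor substrate, rose by 0.42 ± 0.07, and Synj2, a phosphoinositide phosphatase, by 0.42 ± 0.08. The histone demethylase gene Kdm7a rose by 0.40 ± 0.06, and Bcor and Rybp, subunits of Polycomb complexes, by 0.49 ± 0.08 and 0.44 ± 0.07. Hnrnph1, Pnn and Prpf3, which act in splicing, rose by 0.30, 0.35 and 0.37, with young values of 0.01, -0.04 and 0.02. Rhob, a small GTPase, had a log2 fold change of -0.36 ± 0.06, and Rpl10a, a ribosomal protein, of -0.43 ± 0.08. No test of these genes as a group was made.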
